A study of Mus musculus with 6 samples.

Results

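The genes that encode the intermediate filaments of neural cells were examined: Nefl, Nefm, Nefh, Prph, Ina, Nes and Vim. They were chosen by gene name, and all 7 of 7 were found among the 19613 genes of the table. Expression had been measured on Affymetrix mouse exon arrays in embryoid bodies, which are aggregates of differentiating stem cells. The bodies were grown from mouse embryonic stem cells named HBG3 in the series' labels and HGB3 in the study's text, a line in which the promoter of the motor neuron gene Hb9 (Mnx1) drives a green fluorescent protein, and were pushed towards spinal motor neurons with retinoic acid and an agonist of the hedgehog pathway.

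All 6 arrays belong to 1 group, in which the bodies were exposed for a day to blood fluid from mice. The donors were male carriers of the strain B6CBA-Tg(HDexon1)62Gpb/3J, a transgenic model of Huntington's disease, at an age before symptoms began. The fluid is named plasma in the labels of the samples and serum in the title of the series. The strain is that of the blood donors and not of the cells. The arrays are called replicates 2, 4, 5, 6, 7 and 8 after their titles. Embryoid bodies hold motor neurons mixed with other cells, so fewer cells of a type and less RNA per cell cannot be told apart in the values. Control arrays were not analysed here, so the values describe levels and their spread over arrays and not a response to the fluid. Nothing in the labels says whether the arrays came from separate batches of cells. Each exact p-value given here is the share of pairings of these 6 arrays with an r at least as strong, and covers no other arrays.

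Intermediate filaments are rope-like polymers of coiled-coil proteins that give cells their mechanical strength. Neural cells change their filaments as they mature. Dividing neuroepithelial cells use vimentin (Vim), which polymerizes by itself, together with nestin (Nes), which needs vimentin or another partner. Young neurons switch on alpha-internexin (Ina), and then the neurofilament triplet of light (Nefl), medium (Nefm) and heavy (Nefh) chains, which set the calibre of large axons such as those of motor neurons. Peripherin (Prph) is found in neurons with axons that leave the central nervous system, motor neurons included. Nes, Vim and Ina are called immature filaments below, and Nefl, Nefm, Nefh and Prph mature filaments.

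The bases just before the transcription start are shown for the 4 of 7 genes with an entry in the RefSeq promoter table of GRCm38.p6, since they include members of both groups. Nefl, Nefm and Nefh had no entry. Each run is the 100 bases upstream of the listed start on the plus strand, and capitals mark the letters of a TATA box, a CCAAT box or a GC box found on either strand. The letters searched were TATAAA for the first, CCAAT for the second and GGGCGG for the last. The windows of Prph, Nes, Vim and Ina lie at chr15:99055074-99055173, chr3:87970993-87971092, chr2:13574211-13574310 and chr19:47014581-47014680.
Prph: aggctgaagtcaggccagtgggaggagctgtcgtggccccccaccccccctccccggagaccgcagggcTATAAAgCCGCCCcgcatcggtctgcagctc
Vim: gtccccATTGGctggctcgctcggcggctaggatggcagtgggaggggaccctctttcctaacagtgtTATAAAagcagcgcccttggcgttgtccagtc
Ina: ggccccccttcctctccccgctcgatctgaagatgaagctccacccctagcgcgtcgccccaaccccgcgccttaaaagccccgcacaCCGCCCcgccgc
Nes: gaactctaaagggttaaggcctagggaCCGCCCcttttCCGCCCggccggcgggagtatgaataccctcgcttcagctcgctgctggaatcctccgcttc

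The type III filament genes Prph and Vim both held the letters TATAAA on the forward strand close to the start, at positions -31 to -26 in Prph and -32 to -27 in Vim, counted from the listed start. Within the last 40 bases before the start, 2.31% of 32851 promoters of the table held these letters on that strand. Over 250 upstream bases and both strands, the share was 12.4% for TATAAA, 33.8% for CCAAT and 32.7% for GGGCGG. GC boxes were found in Prph, Nes and Ina, and the GC content of the 250 bases was 65.2% in Prph, 58.8% in Nes, 58.4% in Vim and 70.8% in Ina, against a median of 52.4% over all promoters. These matches describe the letters alone, and none of the 3 motifs overlapped another.

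The first question was which filament genes could be told from background. Olfactory receptor (Olfr) genes are mostly silent outside olfactory tissue, and the 95th percentile of the mean log2 intensities of 1032 such genes, at 7.47, was taken as background. All 7 filament genes had a mean above it, where 65.2% of all genes did. Each was also above the corresponding percentile of its own array in 6 of 6 arrays, which held for 62.0% of all genes. Vim, Ina, Nefl and Nefm lay above every olfactory receptor gene. The single highest of those genes, Olfr68 at 10.34, exceeded Prph and Nes, and 5 of the 1032 exceeded Nefh.

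**Figure D1:**
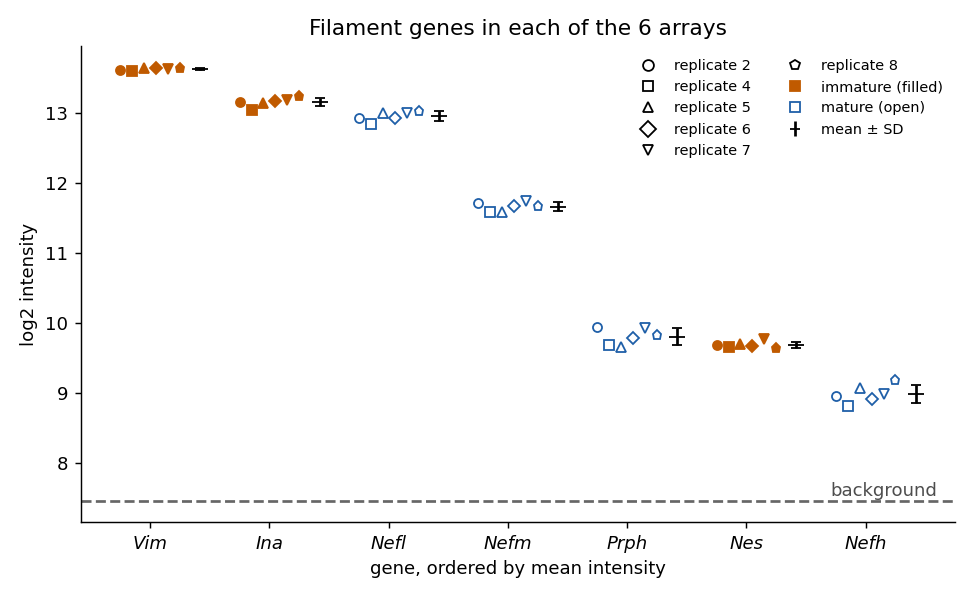
Log2 intensity (vertical axis) of the 7 filament genes (horizontal axis) in each of the 6 arrays, with 1 marker shape per replicate, the mean ± SD over arrays in black and the background of 7.47 as a dashed line. Vim, Ina and Nefl lie between 12.84 and 13.65, Nefm between 11.58 and 11.74 and the others between 8.81 and 9.95.

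Among the immature filaments, Vim and Ina were among the brightest genes of the arrays while Nes was not. The log2 intensity of Vim had a lowest value of 13.60, a median of 13.63 and a highest value of 13.65 over the 6 arrays, with a mean of 13.63 ± 0.018 (SD, n = 6). It was the 20th highest of 19613 genes. The arrays thus differed by at most 1.03-fold for Vim.

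Ina ranged from 13.04 in replicate 4 through a median of 13.16 to 13.24 in replicate 8, with a mean of 13.16 ± 0.064 (log2 intensity, SD, n = 6), and was the 40th highest gene. Nes ranged from 9.65 in replicate 8 through a median of 9.68 to 9.77 in replicate 7, with a mean of 9.69 ± 0.043 (log2 intensity, SD, n = 6), above 79.1% of all genes. Replicate 7 stood highest for Nes and the other 5 arrays lay within 9.65 and 9.70. On the linear scale the mean intensity was 12654 for Vim, 9131 for Ina and 828 for Nes.

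The mature filaments spread over a wide range of intensities, and Nefl led them. The log2 intensity of Nefl ranged from 12.84 in replicate 4 through a median of 12.96 to 13.03 in replicate 8, with a mean of 12.95 ± 0.069 (SD, n = 6), which placed it 63rd of all genes. Nefm, the chain that joins Nefl in the polymer, ranged from 11.58 in replicate 4 through 11.68 to 11.74 in replicate 7, with a mean of 11.66 ± 0.065 (log2 intensity, SD, n = 6), above 97.9% of genes. Both were therefore well inside the upper tail of the array.

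Nefh, the heavy chain that neurons add last as axons thicken, was the dimmest of the 7 genes. It ranged from 8.81 in replicate 4 through 8.98 to 9.19 in replicate 8, with a mean of 8.99 ± 0.13 (log2 intensity, SD, n = 6), above 65.3% of genes and 2.87-fold over background. Prph ranged from 9.66 in replicate 5 through 9.81 to 9.95 in replicate 2, with a mean of 9.81 ± 0.12 (log2 intensity, SD, n = 6), above 80.9% of genes. The ratio of the highest to the lowest array was 1.30-fold for Nefh and 1.22-fold for Prph, the widest ratios of the 7 genes.

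In order of mean intensity the genes ran Vim, Ina, Nefl, Nefm, Prph, Nes and Nefh. Probes differ in affinity between genes and the deposited value is a mean over exons, so this is an order of intensities and not of transcript amounts. Neighbours in the order had ranges over arrays that did not overlap, except for Prph and Nes. Prph exceeded Nes in 5 of 6 arrays by a mean of 0.11 ± 0.11 (log2, SD, n = 6), and replicate 5 had the opposite order, and the ranges of both genes over the arrays overlapped. The mean difference of 0.114 was close to its SD of 0.108. Ina and Nefl were close but kept their order in 6 of 6 arrays, with a difference of 0.20 ± 0.034 (log2, SD, n = 6), and the lowest Ina value of 13.04 lay only just above the highest Nefl value of 13.03.

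The grouped comparison of mature with immature filaments followed the same limits. The mean log2 intensity was 10.85 ± 0.075 for the 4 mature genes and 12.16 ± 0.030 for the 3 immature genes (SD over 6 arrays). The difference of mature minus immature was -1.30 ± 0.051 (log2, SD, n = 6). Replicate 4 had the widest gap at -1.37 and replicate 8 the narrowest at -1.24. All 6 arrays thus had a lower mean for mature filaments. The size of the difference rested on which genes were placed in which group: it was -0.35 with Ina counted as mature and -0.96 with Prph left out. Both means were lowest in replicate 4. Pearson's r between the means was 0.87, given as a description since both groups share their arrays.

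The spread of these genes over arrays was then set beside that of other genes. Over the 12793 genes above background the median SD was 0.076 on the log2 scale. Nefh and Prph varied more than most, with SDs above those of 81.8% and 78.3% of these genes. Nefl, Nefm and Ina had SDs above 43.2%, 38.8% and 37.5% of them, close to the middle, and the SD of Nes was above 13.8%.

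Vim had an unusually small SD, with only 70 of the 12793 genes below it. Bright genes vary less on these arrays, but among the 58 genes with a mean log2 intensity above 13 the median SD was 0.046, and 1 gene had an SD under that of Vim. When each array was centred on its median the SD of Vim rose to 0.031. The SDs of Nefl and Ina rested in part on replicate 4, without which they fell to 0.047 and 0.036, and that of Nes rested on replicate 7, without which it was 0.020.

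**Figure D2:**
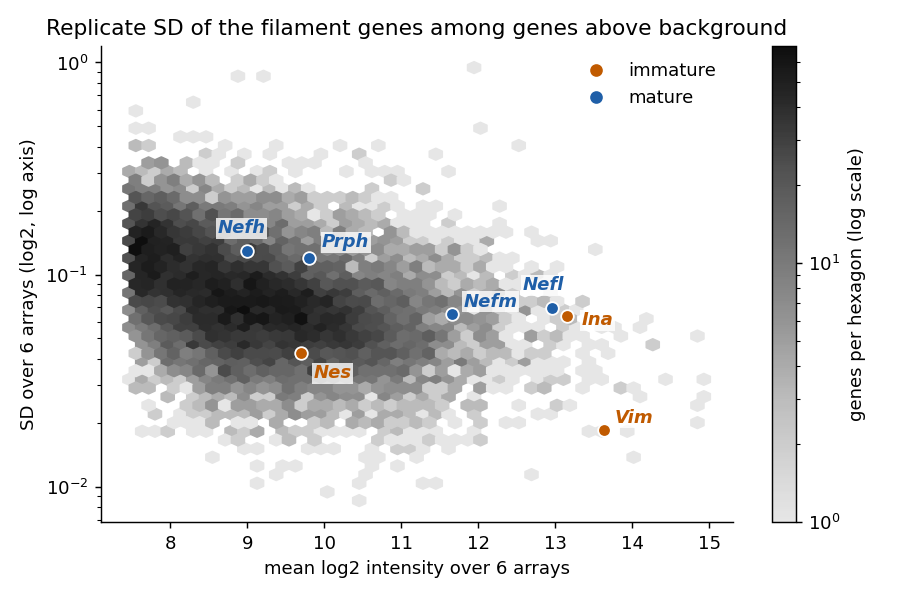
SD over 6 arrays on a log axis (vertical, log2 units) against mean log2 intensity (horizontal) for the 12793 genes above background, shaded by the number of genes per hexagon, with the 7 filament genes marked. Nefh and Prph sit in the upper part of the cloud at SDs of 0.13 and 0.12, and Vim lies at the lower edge at 0.018.

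Whether the filament genes deviated together was then asked for all 21 pairs, by Pearson's r over the 6 arrays with a two-sided exact permutation test over all 720 pairings. Every gene above background was tested against each filament gene, and p-values were adjusted over all of them by the Benjamini-Hochberg method. Of the 21 pairs, 0 passed an adjusted p of 0.05, as did 0.0% of all genes tested against each filament gene. By the unadjusted exact test 3 of the 21 pairs had a p under 0.05, where the share of all genes that did was 4.85% against Nefl, 3.96% against Nefm, 6.13% against Nefh, 3.52% against Prph, 5.39% against Nes, 2.76% against Vim and 5.1% against Ina. The r of the 21 pairs had a median of 0.43 and ran from -0.28 to 0.97. The adjusted threshold is hard to meet with 6 arrays, since 356 genes would have to share the smallest possible exact p of 0.0014. The limma slope, a moderated regression without such a floor, also gave 0 relations.

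Nefm and Prph had the highest r of the 21 pairs, at 0.97 (exact permutation p = 0.014, adjusted p = 1.0). Spearman's rho came to 0.89 (exact permutation p = 0.033). Both were high in replicates 2 and 7 and low in replicates 4 and 5. With the 2 arrays farthest from the median of Nefm removed, which were replicates 4 and 5, r was 0.91. With each array left out in turn r lay between 0.96 and 0.98. Prph was the 3rd of 12792 genes by its r with Nefm, and 57 genes, 0.446%, had an r above 0.9 with Nefm. In the other direction Nefm was the 7th by its r with Prph, where the share above 0.9 was 0.422%.

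Nefl and Nefh formed the second pair, with an r of 0.92 (exact permutation p = 0.0083). The adjusted p was 0.999 over all genes tested against Nefl and 0.589 over all tested against Nefh. Spearman's rho came to 0.94 (exact permutation p = 0.017). Both were highest in replicate 8 and lowest in replicate 4. With the 2 arrays at the extremes of Nefl removed, r was 0.82, and it was 0.94 without replicate 8 and 0.86 without replicate 4. Nefh was the 46th of 12792 genes by its r with Nefl, and Nefl the 94th by its r with Nefh. The share of genes with an r above 0.9 was 0.508% for Nefl and 1.165% for Nefh. These pairs are described because of their values, and neither passed the adjusted threshold.

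The light and medium chains are parts of the same polymer and neighbours on the same chromosome, with 0 protein-coding genes listed between them, yet r between Nefl and Nefm was 0.39 (exact permutation p = 0.45). Spearman's rho was 0.60 (exact permutation p = 0.24), and r was -0.22 with the 2 arrays at the extremes of Nefl removed. Replicate 5 held a high Nefl and a low Nefm. With 1 array left out, r ran from -0.18 without replicate 4 to 0.73 without replicate 5, so the value rests on these arrays. Nefl minus Nefm was smallest in replicate 2 at 1.21 and largest in replicate 5 at 1.41, with a mean of 1.29 ± 0.074 (log2, SD, n = 6). Nefm with Nefh had an r of 0.22, and Prph with Nefh had 0.17.

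**Figure D3:**
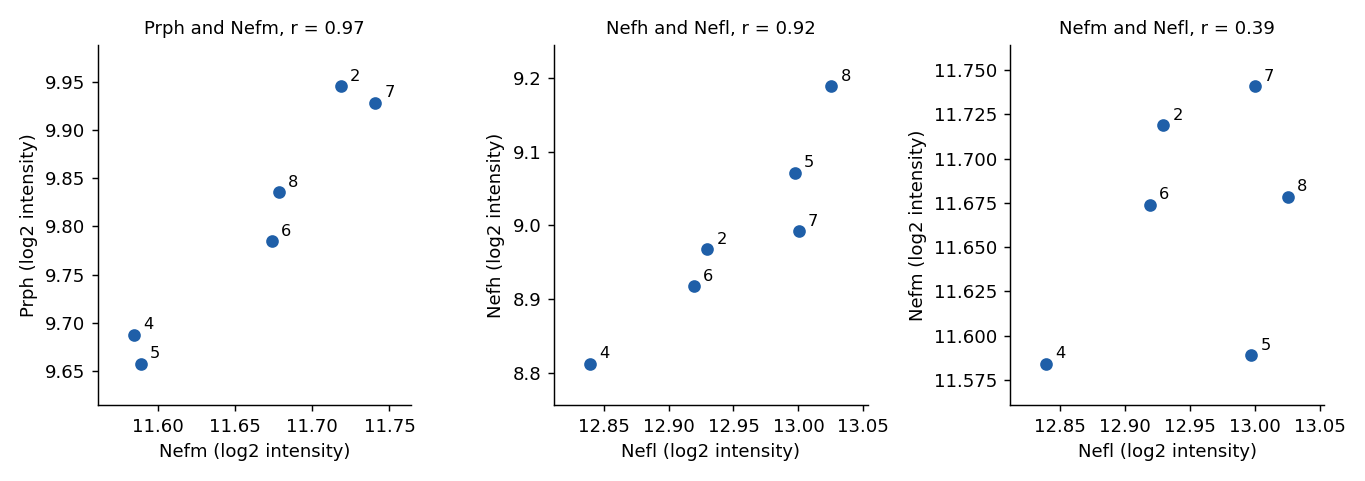
Log2 intensities of Prph against Nefm, Nefh against Nefl and Nefm against Nefl, with 1 point per array labelled by its replicate number. The points of the first pair of genes follow a line at an r of 0.97 and those of the second at 0.92, whereas Nefl and Nefm, at an r of 0.39, part in replicate 5.

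By r, Ina was closer to Nefl and Nefh than to the other immature genes, although these differences in r were not tested. Its r was 0.87 with Nefl (exact permutation p = 0.021), with an adjusted p of 0.999 over all genes tested against Nefl and 0.878 over all tested against Ina. Spearman's rho was 0.77 (exact permutation p = 0.10), and r was 0.13 with the 2 arrays at the extremes of Nefl removed, so this relation rests on those arrays. Ina and Nefh had an r of 0.84 (exact permutation p = 0.057) and a rho of 0.60 (exact permutation p = 0.24). This relation rested on the extreme arrays as well, since r was -0.46 with the 2 at the extremes of Nefh removed. Of all 21 pairwise differences that of Nefl and Ina had the smallest SD, at 0.034, under the SD of either gene. With Vim and Nes the r of Ina was 0.59 and 0.17. With the 2 arrays at the extremes of Ina removed, these became -0.30 and 0.70. The order by r over all arrays was therefore not kept. Vim and Nes themselves had an r of -0.14 (exact permutation p = 0.88) and a rho of 0.086 (exact permutation p = 0.92).

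The filament genes were next related to markers of cell stage. A neuron list of Tubb3, Map2, Dcx, Stmn2, Elavl3, Elavl4, Rbfox3 and Snap25 had a mean of 11.96 ± 0.067 (log2 intensity, SD, n = 6). A progenitor list of Sox1, Sox2, Sox3, Sox9, Msi1, Fabp7, Hes1 and Hes5 had 10.76 ± 0.019 (log2 intensity, SD, n = 6). Pax6 was left out of it, since it lay below background at 6.89. The study corrected for batches of neurons with a linear model per gene, based on 4 transcription factor genes, Isl1, Lhx3, Mnx1 and Olig2. The mean of these 4 genes was taken here as a motor neuron index, which is not the study's model. Of the 21 relations of the 7 filament genes with these 3 values, 0 passed an adjusted p of 0.05, as did 0.0% of all genes tested. By the unadjusted exact test 1 relation had a p under 0.05, where 6.53% of all genes did against the neuron list, 2.59% against the progenitor list and 4.71% against the motor neuron index.

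That relation was of Ina with the neuron list, at an r of 0.92 (exact permutation p = 0.0014, the smallest that 6 arrays can give, and adjusted p = 0.65). Spearman's rho was 1.0 (exact permutation p = 0.0028). Removing the 2 arrays at the extremes of the list gave an r of 0.96. Ina was the 141st of 12785 genes by its r. The r of the mature filaments with the neuron list was 0.70 for Nefl, 0.79 for Nefm, 0.64 for Nefh and 0.71 for Prph, with exact permutation p-values from 0.060 to 0.16. With the 2 extreme arrays removed these became -0.07, 0.91, -0.60 and 0.79, so that those of Nefl and Nefh rested on these arrays. Vim and Nes had an r of 0.32 and 0.21 with it.

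With the progenitor list r was negative for 6 of the 7 genes, from -0.75 for Prph to -0.42 for Nes, while Vim had 0.21. Nes, a progenitor filament, did not have a positive r with this list, at an exact permutation p of 0.45. The list itself differed little between arrays, from 10.74 to 10.79 (log2 intensity). The lowest exact permutation p was 0.10, for Prph. Its r became -0.94 once replicates 4 and 6 were dropped, the 2 highest on the list. Replicate 2, the lowest, stayed in. The same step turned the sign for Nefl, to 0.69, and for Nefh, to 0.55, and left Nes at -0.09. With the motor neuron index r ranged from -0.64 for Prph to 0.77 for Vim. Nefl had 0.44, Nefh 0.60 and Nefm -0.58. The lowest exact permutation p was 0.085, for Vim. Its r became 0.67 once replicates 5 and 8 were dropped, the 2 highest on this index, while replicate 7, the lowest, stayed in. That step turned Nefl to -0.49 and Nefh to -0.47. None of these differences in sign was tested.

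**Figure D4:**
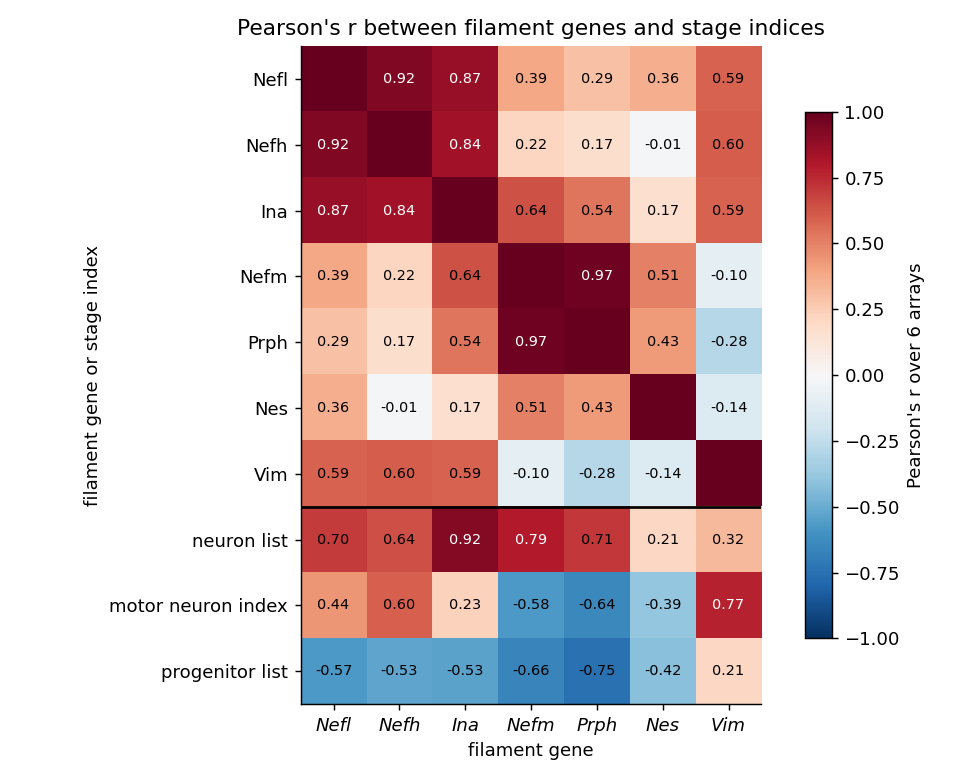
Pearson's r over 6 arrays between the filament genes (columns) and, in rows, the filament genes and below the line the 3 stage indices, from -1 in blue to 1 in red. The r among Nefl, Nefh and Ina was 0.84 to 0.92 and that of Nefm with Prph 0.97. Without the 2 extreme arrays the r of Ina was 0.13 with Nefl, -0.46 with Nefh, -0.30 with Vim and 0.70 with Nes. The progenitor row is negative here except for Vim. In it, Nefl and Nefh turned positive without the 2 arrays highest on the progenitor list.

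The genes closest to each filament gene by r over the 6 arrays were as follows. Nefm was closest to Actl6b, a neuronal subunit of the BAF chromatin complex, at an r of 0.98, then Spnb3, a beta spectrin, at 0.97, and Prph. Prph was closest to Actl6b as well, at 0.99, then Ppcdc and Gng4 at 0.98 each. Nefl was closest to Mtus1, Crat and Ctxn1, at 0.99 each.

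Nefh was closest to Atp13a2, a lysosomal transport ATPase, Ttll1, a tubulin polyglutamylase, and Dnpep, at 0.99 each. Ina was closest to Stau2, an RNA-binding protein of neuronal transport granules, at 0.99, and Fam123c and Mtss1l at 0.98 each. Nes was closest to Tmem8 at 0.99, and Vim to Mc4r and Dck at 0.99 and Nbeal2 at 0.98. With 6 arrays and 12792 genes to choose from, these values are a description, and nothing is drawn from them about function.

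Genes of proteins that bind, modify, carry or remove neural filaments formed a list of 15. Of these, 14 were matched and all 14 were above background, with a median log2 intensity of 10.29. The counts of genes above background in this and the following lists stand beside 65.2% of all genes, and several lie near that share. The highest was Gsk3b, a kinase that phosphorylates neurofilament tails, at 11.92 ± 0.040 (log2 intensity, SD, n = 6). The kinesin motors that carry neurofilaments were lower, with Kif5a at 10.29 ± 0.093, Kif5b at 10.89 ± 0.028 and Kif5c at 10.84 ± 0.057 (log2 intensity, SD, n = 6). Cdk5, another neurofilament kinase, had 10.28 ± 0.064 (SD, n = 6).

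The intermediate filament genes examined from other cell types lay below Nefm in mean intensity, but Sync and Krt1 lay above Prph, Nes and Nefh. Gfap, the filament of astrocytes, had a log2 intensity of 7.55 ± 0.15 and Des, that of muscle, had 7.63 ± 0.17 (SD, n = 6), close to the background of 7.47. In the same list, Sync at 9.85 ± 0.15 was highest. Of the 3 matched keratins of simple epithelia, 2 were above background, with Krt8 highest at 8.78 ± 0.16 and Krt19 below at 7.24 ± 0.12 (SD, n = 6). Of 5 epidermal keratins 4 were above background, from Krt15 below it at 7.01 ± 0.25 to Krt1 at 9.99 ± 0.043 (SD, n = 6). The lens filament Bfsp2 was below background at 6.74 ± 0.14 and Bfsp1 just above at 7.54 ± 0.12 (SD, n = 6). Of the nuclear lamins, all 3 were above background, from Lmna at 7.59 ± 0.077 to Lmnb1 at 9.38 ± 0.058 (SD, n = 6).

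**Figure D5:**
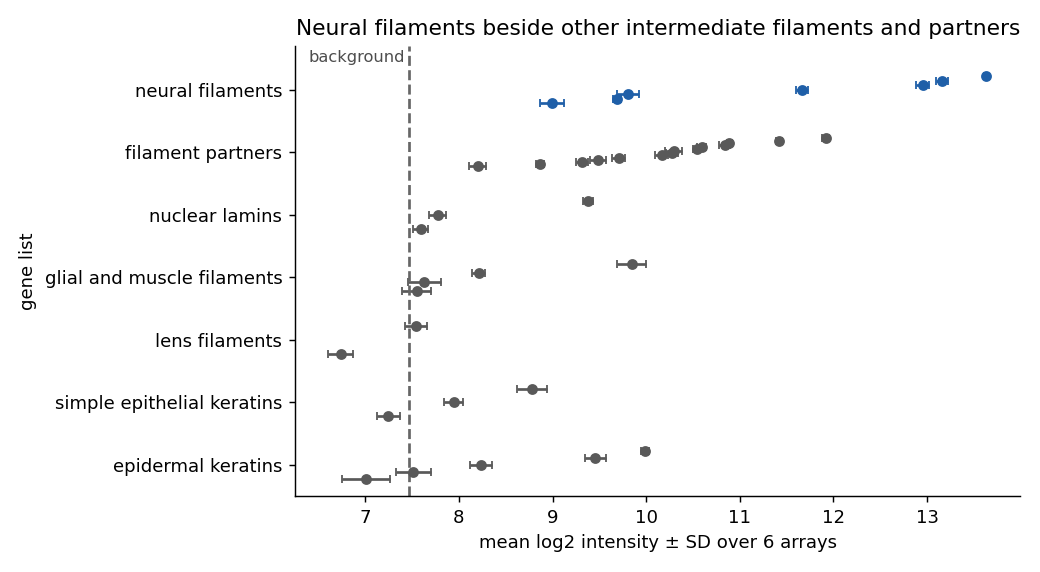
Mean log2 intensity ± SD over 6 arrays (horizontal axis) of each gene in 7 lists (vertical axis), with the background as a dashed line. The neural filaments reach 13.63, and the highest of the other intermediate filaments, Krt1, lies at 9.99.

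Vim is also used by mesenchyme and endothelium, and Prph by peripheral neurons, so markers of these cells are given beside them. Of 8 mesenchyme markers 4 were above background, from Pdgfra below it at 6.39 to Col1a1 at 8.64 (mean log2 intensity), and the summed linear intensity of the list ranged from 1628 to 1943 over the arrays. Of 5 endothelial markers 2 were above background, from Tek below it at 6.09 to Tie1 at 8.50, with a summed intensity of 852 to 966. Of 6 markers of peripheral sensory and autonomic neurons 5 were above background, from Dbh below it at 7.35 to Th at 10.56 ± 0.24, with a summed intensity of 3154 to 3766 (SD, n = 6). Of 6 endoderm markers 3 were above background, from Afp below it at 6.07 to Foxa1 at 11.00, a gene that the floor plate also uses. No marker was at 0, and the part of these cells in the levels of Vim and Prph was not tested.

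Replicate 8 stood apart in the low range of the arrays. Its lower quartile of intensity was 109, against 121 to 129 in the others, the median of its olfactory receptor genes was the lowest at 5.44, and it had the lowest mean in 9 of the 13 marker lists. It was also the highest array for Nefl, Nefh and Ina, and for the means of the neuron list and of the filament partners. The part of this difference in their values was not tested. When each array was centred on its median, r was 0.96 for Nefl with Nefh, 0.98 for Nefm with Prph and 0.95 for Ina with the neuron list. Centring adds the same amount to both values of an array, and it raised replicate 8, whose median of 8.21 was the lowest. These r therefore do not test the part of replicate 8.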

How the data were processed

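RNA of embryoid bodies was hybridized to 6 mouse exon arrays of 1 group. Per the methods, the authors summarized exons with RMA (Aroma Affymetrix) and averaged all exons of a gene by release 33 of the array annotation. The labels name Affymetrix Expression Console as well. The table deposited by the authors holds 1 linear intensity per gene and array. Their later correction for batches gives log2 ratios, which these values are not. The genome build is not given in the sources used here. The table held 0 columns of other samples.

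Each deposited intensity was put on the log2 scale, with nothing added. The study describes 6 serum samples of this model, so the SD over arrays may hold differences between donors, cultures and hybridizations together. The number of arrays limits the precision. Of 80 list entries 77 were matched, 2 by a RefSeq synonym (Map2 as Mtap2, Arhgef28 as Rgnef). Syt1, Cdk5r2 and Krt7 were not analysed here. Relations were tested with numpy 2.4.6 by exact permutation of the absolute r, and with limma 3.58.1. Both were run on simulated data, where the exact test was judged by its unadjusted p alone. The members, lists and tests were chosen with earlier results of these data known. Named were the 7 members, the 3 genes most like each by r, and from each list the extremes and genes below background, of which some are not reported here. Others named were picked after their values were seen. Alternatives were other backgrounds, median centring, a pseudocount of 16, other groupings, Spearman's rho, limma, no filter and each array left out.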

Additional observations from a re-analysis of the deposited data

How the results depend on the processing

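Of 169 recomputed values, 7 moved by more than their error or by over 1.5 times. Many of the others could not move, since centring keeps mean levels and a shift of a whole array cancels in the mature minus immature difference. All 7 genes stayed above background with the 99th percentile of olfactory receptor genes at 8.33, with median centring and with each array left out, but only 4 exceeded the highest olfactory receptor gene. The mature minus immature difference of -1.30 was -0.35 with Ina counted as mature and -0.96 without Prph, and lay between -1.32 and -1.29 with 1 array left out. The SD of Vim rose from 0.018 to 0.031 with median centring. With 1 array left out, the SD ranged from 0.047 to 0.076 for Nefl, from 0.020 to 0.048 for Nes and from 0.036 to 0.071 for Ina. The number of relations past an adjusted p of 0.05 was 0 under every alternative run, with 3 to 7 of 42 at an unadjusted p under 0.05. For the exact tests this 0 says nothing about stability, because 1 relation alone cannot pass with so few arrays. No paired analysis was possible because all arrays belong to 1 group. Genes near background are limited by signal.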
